A study of Homo sapiens with 6 samples.

Results

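The mature miRNA arms hsa-miR-146a-5p, hsa-miR-146b-5p, hsa-miR-146b-3p and hsa-miR-155-5p, all linked to inflammation, were followed in small RNA libraries of MIO-M1 cells and of the extracellular vesicles (EV) that these cells released. They were chosen by name and make up 4 of the 2576 mature miRNAs listed in the deposited count tables. MIO-M1 is an established wild-type human cell line of Müller glia, which span the whole thickness of the retina. Whole cell RNA came from passages 22, 24 and 26, numbered here as replicates 1, 2 and 3, and EV RNA from passages 23, 25 and 27, numbered likewise. Equal numbers mark no pairing of cells with EV. Cultures were grown with fetal calf serum, and EV were collected after washing from medium described as serum-free in the labels and as vesicle-depleted in the study's methods. Vesicles were treated with RNase A before their RNA was isolated. Cell pellets and EV pellets were extracted with different RNA kits, so that a difference between fractions and a difference between kits cannot be told apart. No inflammatory stimulus is named for any culture.

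The miR-146a and miR-155 genes are transcribed in response to NF-κB, the transcription factor that carries signals from Toll-like and interleukin-1 receptors to the nucleus. miR-146a and miR-146b repress IRAK1 and TRAF6, signalling proteins downstream of those receptors, and miR-146a so forms a negative feedback on the pathway. miR-155, first known as the product of the BIC transcript, is induced in activated macrophages and lymphocytes and represses SOCS1 and INPP5D, both inhibitors of cytokine signalling. A miRNA precursor yields a 5p and a 3p arm, and the bases at positions 2 to 8 of a mature arm, the seed, set most of its pairing with target mRNA.

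The mature sequences are shown because the seed decides which members can share targets, and because the 5p arms of miR-146a and miR-146b are so alike that their counts have to be read together. They were taken from RefSeq (GRCh38.p14), which held all 4 members and 2262 of the 2576 listed names. Seeds are in capitals, and each sequence runs 5′ to 3′.
miR-146a-5p: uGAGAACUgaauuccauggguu
miR-146b-5p: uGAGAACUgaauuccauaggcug
miR-146b-3p: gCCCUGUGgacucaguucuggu
miR-155-5p: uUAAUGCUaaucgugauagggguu

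miR-146a-5p and miR-146b-5p shared the seed GAGAACU and their first 17 bases. Over the 22 bases compared they were identical at 20, and the differences, counted from 1 at the 5′ end with the miR-146a-5p base first, were G18A and U21C. RefSeq gives miR-146b-5p 1 more base at its 3′ end than the 22 of the deposited annotation, and gives miR-155-5p 24 bases against 23. A read of either miR-146 5p arm that was trimmed before position 18 would match both, and how the alignment treated such reads is not given in the sources used here. Of all other listed miRNAs with a RefSeq sequence, only miR-7153-5p held the same seed, and it had a count of 0 in all 6 libraries. No other listed miRNA with a RefSeq sequence shared the seed of miR-155-5p or of miR-146b-3p, so that the arms of miR-146b belong to different seed families.

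On GRCh38, MIR146A lies at chr5:160485352-160485450 on the plus strand, in exon 2 of the long non-coding transcript MIR3142HG. MIR146B lies at chr10:102436512-102436584 on the plus strand, and GENCODE 29 lists no other gene across it. MIR155 lies at chr21:25573980-25574044 on the plus strand, in exon 4 of its non-coding host MIR155HG. The deposited tables use another coordinate system, with no build named in their header, and place miR-146a-5p on chromosome 5 from 159912379, miR-146b-5p on chromosome 10 from 104196277 and miR-155-5p on chromosome 21 from 26946295. Each arm has a single locus in the tables.

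The depth behind each value is the total count of reads assigned to miRNA, which was 396025, 3990900 and 1252144 in whole cell replicates 1 to 3 and 1225541, 2038635 and 3134561 in EV replicates 1 to 3. Levels are given as CPM, the counts per 1000000 counts of the library, with exact Poisson intervals at 95%. These cover counting error only, not the spread between cultures. The sources name no collapse of PCR copies, and where copies were counted these intervals, and those of shares below, are too narrow. A count of 0 allows up to 3 counts, equal to 7.58 CPM in the shallowest library, whole cell replicate 1, and to between 0.957 and 2.45 CPM in EV. The 3 Müller glia markers miR-9-5p, miR-125b-5p and miR-204-5p together held 126934 to 131069 CPM in the cell libraries and 46477 to 95760 CPM in the EV libraries. With no other cell type to compare, this sum does not test the cell label. Most of that sum was miR-125b-5p, with means of 110495 CPM in whole cells and 49536 CPM in EV. miR-204-5p had means of 9798 CPM in whole cells and 2538 CPM in EV. miR-9-5p had the opposite order, with means of 9383 and 18155 CPM. Of 4 miRNAs of retinal neurons, miR-124-3p was at 0 in every library and the list summed to between 227 and 333 CPM in whole cells and between 1151 and 1218 CPM in EV. The endothelial arms of miR-126 summed to between 30.3 and 93.4 CPM in whole cells and between 535 and 810 CPM in EV.

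miR-155-5p was the most abundant of the 4. It had 374, 3784 and 1093 counts in whole cell replicates 1, 2 and 3, or 944, 948 and 873 CPM, and it ranked between 76 and 81 among the miRNAs of each library. The mean was 922 ± 42.4 CPM (SD, n = 3), and the counting intervals of the 3 whole cell libraries overlapped one another. In EV it had 2499, 2566 and 1735 counts, or 2039, 1259 and 554 CPM, with a mean of 1284 ± 743 CPM (SD, n = 3). EV replicates 1 and 2 thus lay above every whole cell library and EV replicate 3 below all of them. The EV intervals, 1960 to 2121, 1210 to 1308 and 528 to 580 CPM, did not overlap one another. On log2(CPM + 4) the EV mean exceeded the whole cell mean by 0.29, with overlapping groups (exact permutation test, two-sided, p = 0.7).

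miR-146b-5p, the more abundant miR-146 arm, was as even as miR-155-5p in whole cells. It had 40, 390 and 132 counts, or 101.004, 97.7 and 105.4 CPM, a mean of 101.4 ± 3.86 CPM (SD, n = 3) and a coefficient of variation of 3.81%. The counting interval of whole cell replicate 1 alone ran from 72.2 to 138 CPM, wider than the spread of the 3 values. Their closeness is therefore finer than these counts can measure. EV held 74, 1013 and 165 counts, or 60.4, 497 and 52.6 CPM. EV replicate 2 was 8.23 times as high as the next EV library and stood above every whole cell library, whereas EV replicates 1 and 3 stood below all of them. The EV mean, 203.3 ± 254 CPM (SD, n = 3), was therefore above the whole cell mean while the EV median, 60.4 CPM, was below the whole cell median of 101.004 CPM. The groups overlapped, with a difference of 0.21 in mean log2(CPM + 4) (exact permutation test, two-sided, p = 1).

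miR-146a-5p, the arm best known for feedback on IRAK1 and TRAF6, was scarce in whole cells. Its counts there were 5, 35 and 4, or 12.6, 8.77 and 3.19 CPM, with wide counting intervals that ran from 0.870 CPM at the lowest to 29.5 CPM at the highest. In EV it had 16, 311 and 0 counts, or 13.1, 153 and 0 CPM. EV replicate 2 supplied 92.1% of the summed EV level, EV replicate 1 lay within the counting interval of whole cell replicate 1, and EV replicate 3 held none. That 0 allows up to 0.957 CPM, below the level measured in each of the other libraries. At the lowest level measured elsewhere, 3.19 CPM, EV replicate 3 would have held 10.0 counts. That level, of whole cell replicate 3, rests on 4 counts. Its counting interval, 0.870 to 8.18 CPM, holds the limit of EV replicate 3, so these 2 libraries are not clearly separated. The groups overlapped, and the difference in mean log2(CPM + 4) was 0.94 (exact permutation test, two-sided, p = 0.7).

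Counts of 0 in part of a group were more frequent in EV than in whole cells over all miRNAs tested. Of the 430 miRNAs that reached 5 CPM in 3 or more libraries, which are called filtered here, 139 (32.3%) had a count of 0 in 1 or 2 EV libraries, against 24 (5.58%) in 1 or 2 whole cell libraries. All 4 members passed this filter. The opposite arms miR-146a-3p and miR-155-3p did not, because they had a count of 0 in all 6 libraries.

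**Figure D1:**
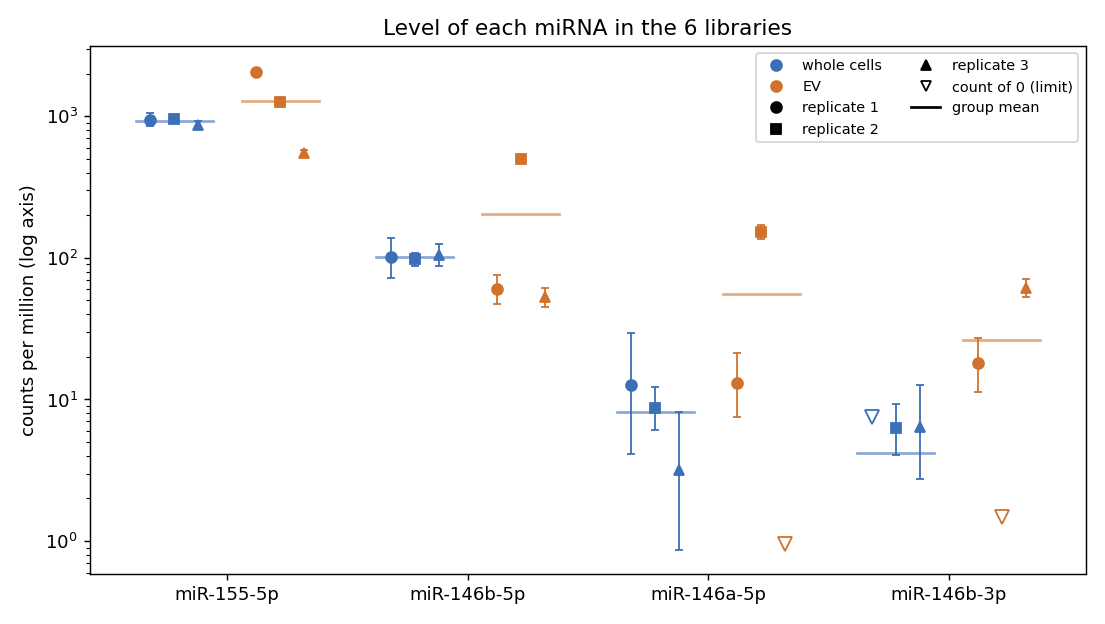
Level of each miRNA, in CPM on a log axis, in 3 whole cell libraries (blue) and 3 EV libraries (orange), with 95% Poisson intervals for counting error, group means as horizontal lines, and open triangles at the limit that a count of 0 allows. The blue points of miR-155-5p and miR-146b-5p nearly coincide, at 873 to 948 and 97.7 to 105.4 CPM, while the orange points spread from 554 to 2039 and from 52.6 to 497 CPM.

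Summing the arms that share a seed gives a value that does not depend on how near-identical reads were divided between them. It does not settle whether reads that match both arms were left out or counted for both. The sum of miR-146a-5p and miR-146b-5p was 114, 106 and 109 CPM in whole cells, a mean of 110 ± 3.66 CPM (SD, n = 3). In EV it was 73.4, 649 and 52.6 CPM, a mean of 259 ± 339 CPM (SD, n = 3). EV replicate 2 again stood above all whole cell libraries and the other EV libraries below them (exact permutation test, two-sided, p = 1). The split of the sum also varied. miR-146a-5p made up 11.1%, 8.24% and 2.94% of it in whole cells and 17.8%, 23.5% and 0% in EV, where 0 of 165 counts allows a share of up to 1.82% by the limit of 3 counts. The Clopper-Pearson 95% interval was 21.2% to 25.9% in EV replicate 2 and 0.807% to 7.36% in whole cell replicate 3, so that the limit of EV replicate 3 lay within the latter. Over the groups the share was 7.43% ± 4.14 in whole cells and 13.8% ± 12.3 in EV (SD, n = 3; exact permutation test, two-sided, p = 0.5).

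Within whole cells the ratio of miR-155-5p to the miR-146 seed sum, which no scaling of libraries can change, was nearly constant. Each miR-146 count was matched by 8.31, 8.90 and 8.04 miR-155-5p counts in replicates 1, 2 and 3. The value of replicate 1 rests on 45 miR-146 counts. In EV the same ratio was 27.8, 1.94 and 10.5, on both sides of the whole cell values (exact permutation test, two-sided, p = 0.7).

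miR-146b-3p, the opposite arm of the miR-146b hairpin with a seed of its own, followed another order. It had 0, 25 and 8 counts in whole cells, or 0, 6.26 and 6.39 CPM, and 22, 0 and 192 counts in EV, or 18.0, 0 and 61.3 CPM. The 0 in whole cell replicate 1 allows 7.58 CPM and so does not separate it from the other whole cell libraries. The 0 in EV replicate 2 allows 1.47 CPM, below all non-zero values, although the 5p arm of the same hairpin had 1013 counts there. EV replicates 1 and 3 lay above every whole cell level. On log2(CPM + 4) the difference between the group means was 1.25 (exact permutation test, two-sided, p = 0.5). It was 0.32 without EV replicate 3, 0.79 without whole cell replicate 1 and 2.33 without EV replicate 2.

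As a share of the counts of both arms, miR-146b-5p held 100%, 94.0% and 94.3% in whole cells, and 77.1%, 100% and 46.2% in EV. The Clopper-Pearson 95% intervals of EV replicates 1 and 3, 67.4% to 85.0% and 41.0% to 51.5%, lay below those of all whole cell libraries. By the limit of 3 counts, the absence of the 3p arm from EV replicate 2 allows it a share of up to 0.296%. The mean share was 96.1% ± 3.39 in whole cells and 74.4% ± 26.99 in EV (SD, n = 3), and the groups overlapped (exact permutation test, two-sided, p = 0.4). For miR-155 the 5p arm made up every count, and by the same limit its 3p arm could have held up to 0.802% in whole cell replicate 1, the shallowest library, and up to 0.0793% in whole cell replicate 2, the deepest.

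**Figure D2:**
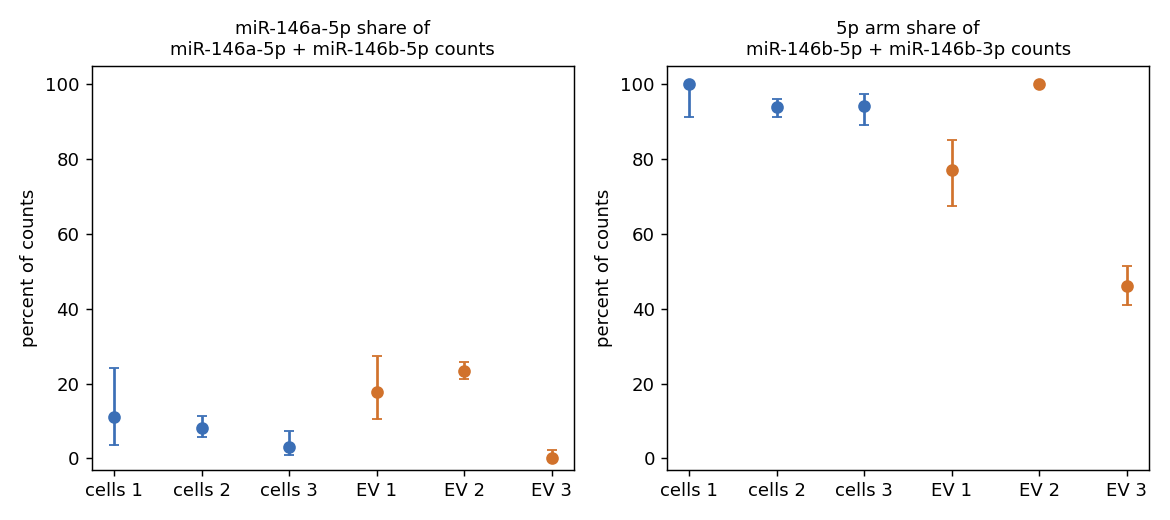
Percent of counts that were miR-146a-5p among both miR-146 5p arms (left) and miR-146b-5p among both arms of its hairpin (right) in each of 6 libraries, with Clopper-Pearson 95% intervals. The whole cell libraries lie between 2.94% and 11.1% on the left and between 94.0% and 100% on the right, and EV replicates 2 and 3 lie at the ends of the EV range in both panels.

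Replicates of the members therefore spread far more in EV than in whole cells. The SD of log2(CPM + 4) of miR-146b-5p was 0.0528 in whole cells, above that of 1.16% of the 430 filtered miRNAs, and 1.76 in EV, above that of 80.2%. With 40 counts in whole cell replicate 1, counting error alone allows a wider spread than this whole cell SD. For miR-155-5p the SD was 0.0670 in whole cells, above that of 2.56% of the filtered miRNAs, and 0.947 in EV, above that of 53.5%. The SD of miR-146a-5p was 0.62 in whole cells and 2.66 in EV, the 15th largest EV value of the 430, and that of miR-146b-3p was 0.79 and 2.03. Across all filtered miRNAs the median SD was 0.50 in whole cells and 0.86 in EV, and 302 of them (70.2%) had the larger SD in EV.

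**Figure D3:**
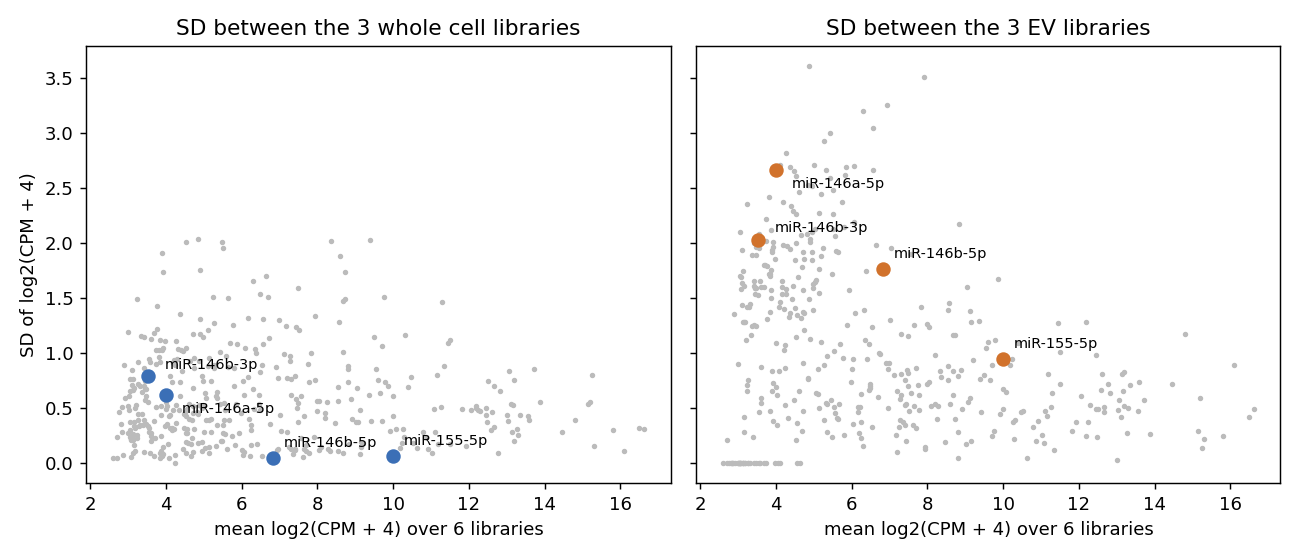
SD of log2(CPM + 4) between the 3 whole cell libraries (left) and the 3 EV libraries (right) against the mean over 6 libraries, for 430 filtered miRNAs (grey) with the 4 members in blue and orange. miR-146b-5p and miR-155-5p sit at the lower edge on the left, at 0.0528 and 0.0670, and miR-146a-5p near the top on the right, at 2.66.

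The library in which a member peaked differed. EV replicate 2 held the highest EV level of miR-146a-5p and miR-146b-5p, EV replicate 1 that of miR-155-5p and EV replicate 3 that of miR-146b-3p. Of 395 filtered miRNAs counted in EV, 177 (44.8%) were highest in EV replicate 2, 136 (34.4%) in replicate 1 and 82 (20.8%) in replicate 3. An excess of the highest over the next EV library as large as the 11.7-fold of miR-146a-5p or the 8.23-fold of miR-146b-5p was seen in 64 (14.9%) and 68 (15.8%) of the filtered miRNAs. Blood cells are also rich in miR-146a and miR-155, and 7 blood cell markers were read in the same libraries. Leaving out miR-486-5p, the other 6 summed to between 0 and 1.60 CPM in whole cells and to 471, 600 and 352 CPM in EV replicates 1, 2 and 3. Of the 7, 6 had their highest EV level in EV replicate 2, among them miR-142-3p at 431 CPM against 270 and 217 CPM, miR-223-3p at 41.7 CPM against 25.3 and 0 CPM, and miR-150-5p, which had 47 counts there and none in the other EV libraries. The exception was miR-451a, which was lowest there, at 33.8 CPM against 131 and 135 CPM. In whole cells miR-451a, miR-142-5p and miR-144-3p were at 0 in all libraries. With miR-486-5p included the marker list summed to between 164 and 1163 CPM in whole cells and between 1549 and 2312 CPM in EV. The part of these RNAs in the levels of miR-146a-5p and miR-146b-5p was not tested. In libraries of bulk RNA, fewer vesicles or cells that carry a miRNA and fewer copies in each cannot be told apart.

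Counts of all 430 filtered miRNAs were compared between EV and whole cells with edgeR's quasi-likelihood test and Benjamini-Hochberg adjustment. The question was which miRNAs were enriched in EV over whole cells of the same line, sampled at other passages. A call needed an adjusted p below 0.01 and a log2 fold change of 2.5 or more in either direction. Of the 430, 25 (5.81%) were called, 19 higher and 6 lower in EV. The split was 14 and 10 with RLE factors, 21 and 16 with library totals and 20 and 18 with upper-quartile factors. None of the 4 members was called, and DESeq2 also called 0 of 4, where it called 72 (16.7%) of all 430. An unadjusted p below 0.05 was given to 0 of 4 by edgeR and by DESeq2, against 154 and 177 of the 430. With 4 members, 0 called does not set them apart from the share called over all filtered miRNAs. For 48.4% of the filtered miRNAs the CPM of the groups did not overlap, and this was so for 0 of the 4 members.

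The fitted log2 fold change of miR-155-5p was 0.49, with a standard error of 0.50 and a 95% interval from -0.68 to 1.67 (edgeR, adjusted p = 0.543). This interval lies within the fold limit of 2.5 on both sides, so that a change of the size required for a call lay outside it. For miR-146b-5p the log2 fold change was 0.82, with a standard error of 0.90 and an interval from -1.28 to 2.92 (edgeR, adjusted p = 0.570). miR-146a-5p and miR-146b-3p had larger fitted values, 2.60 and 2.56, but standard errors of 1.99 and 2.003 and intervals from -2.06 to 7.27 and from -2.13 to 7.25 (edgeR, adjusted p = 0.411 and 0.418). Both no change and an increase of the size required for a call lay inside these last 2 intervals. A decrease of that size lay outside them. With the miR-146 5p arms summed into 1 row, an alternative chosen after seeing the data, the seed family had a log2 fold change of 1.05 with an interval from -1.11 to 3.21 (edgeR, adjusted p = 0.476).

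The direction of 3 members rested on a single EV library. Without EV replicate 2 the log2 fold change was -0.33 for miR-146a-5p, -0.85 for miR-146b-5p and -0.81 for the seed family, and without EV replicate 1 it was -0.24 for miR-155-5p. Without EV replicate 3, the library in which miR-146a-5p was at 0, its log2 fold change was 3.16 with an interval from 0.39 to 5.94 (edgeR, adjusted p = 0.0862). miR-146b-3p kept a positive sign with each library left out, from 0.79 without EV replicate 3 to 3.03 without EV replicate 2. The adjusted p of each of the 4 stayed above 0.05 under all alternatives run, with the lowest value that of miR-146a-5p just given.

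**Figure D4:**
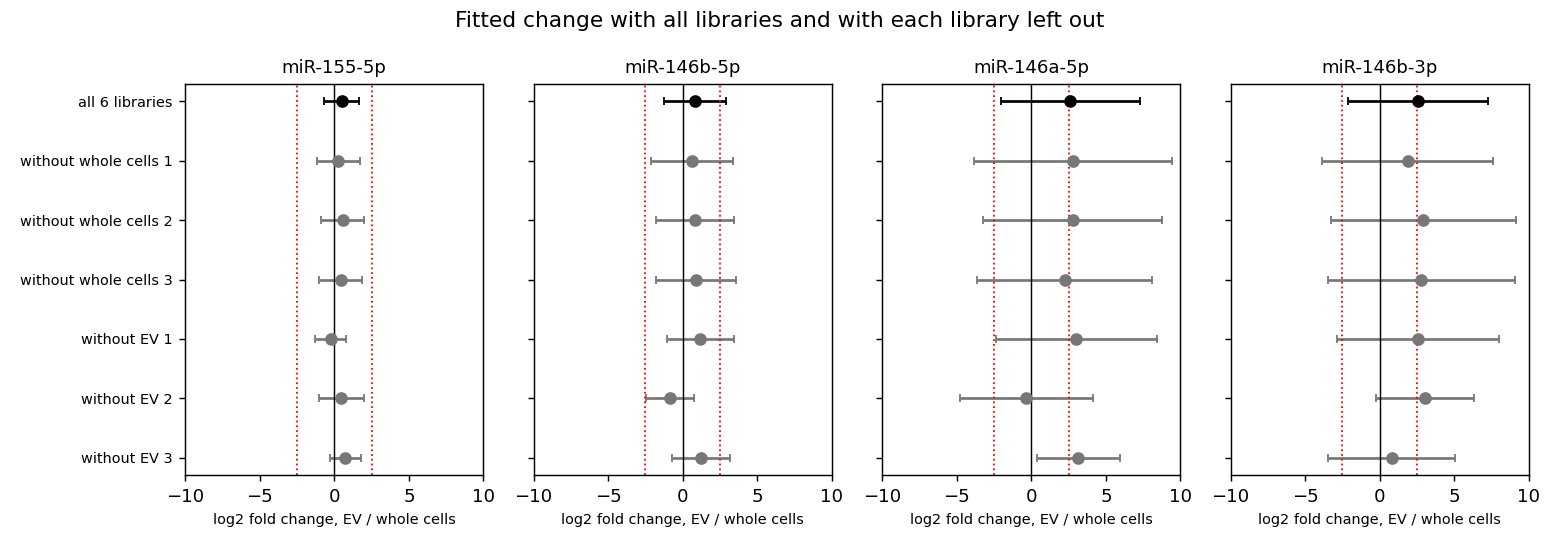
Fitted log2 fold change of EV over whole cells (points) with 95% intervals (bars) for the 4 members, with all 6 libraries (top, black) and with each library left out in turn (grey). Dotted lines mark the fold limit of 2.5, and the point of miR-155-5p moves least, between -0.24 and 0.73, while that of miR-146a-5p moves between -0.33 and 3.16.

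The members did not share one pattern over the 6 libraries. On TMM-scaled log2(CPM + 4), Pearson's r was 0.865 between miR-146a-5p and miR-146b-5p, -0.679 between the arms of miR-146b, and 0.0430 between miR-155-5p and miR-146b-5p. These correlations describe 6 libraries of unequal depth that share a library preparation, and no p-value was computed. The filtered miRNAs most like miR-146a-5p were miR-1185-5p (r = 0.956), miR-454-5p (r = 0.954) and miR-542-3p (r = 0.916), all of which were highest in EV replicate 2 and at 0 in EV replicate 3. Those most like miR-146b-5p were miR-6716-3p, miR-1291 and miR-181c-3p (r = 0.957, 0.954 and 0.952), each with 0 counts in EV replicates 1 and 3. They had only 2.53 to 6.77 CPM in whole cells and 26.5 to 28.5 CPM in EV replicate 2. Each of these r values thus rests on low counts and largely on 1 library. Likeness was greatest for miR-146b-3p with miR-3125 (r = 0.983), miR-541-5p (r = 0.97) and miR-432-5p (r = 0.906), which were highest in EV replicate 3, and for miR-155-5p with miR-3180-3p (r = 0.982), miR-654-3p (r = 0.960) and miR-449c-5p (r = 0.942), which were highest in EV replicate 1. In whole cells miR-3180-3p was also low, at 2.53 to 7.19 CPM. Of the 12 names given as most alike, 10 were again among the first 3 with a pseudocount of 1 in place of 4.

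A list of 30 other miRNAs known for roles in inflammation and NF-κB signalling was read from the same fit. It overlaps the marker lists, holding for example miR-9-5p, miR-125b-5p, miR-223-3p and miR-126-3p. Of the 24 past the filter, 2 were called higher in EV and 1 lower, where 4.42% and 1.4% of all filtered miRNAs were called. The CPM of the groups did not overlap for 18 of the 24, where 48.4% of all filtered miRNAs had groups apart. The median log2 fold change was -0.13 in the list and -0.23 over all filtered miRNAs, also with fold changes against a group at or under 3 counts set to their bound. miR-21-5p, which is induced in inflammation and represses PDCD4, had 24402, 10613 and 8561 CPM in whole cells and 126020, 122602 and 105125 CPM in EV, which the fit put at 3.11 ± 0.43 on the log2 scale (value ± SE, edgeR adjusted p = 0.00448). The endothelial miR-126-3p, which represses the adhesion molecule VCAM1, had 93.4, 38.6 and 30.3 CPM in whole cells and 560, 693 and 427 CPM in EV, or 3.45 ± 0.54 on the log2 scale (value ± SE, edgeR adjusted p = 0.00661). miR-145-5p, which represses the Toll-like receptor adaptor TIRAP, had 169, 133 and 108 CPM in whole cells and 0 counts in every EV library, at least 84.1-fold lower in EV against the limit of 3 counts per library (edgeR, adjusted p = 0.00834).

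For each of these 3 called miRNAs the groups were apart, but they were picked by their calls in the same libraries, so this is no separate result. The other abundant miRNAs of the list did not pass. let-7a-5p, which represses IL6, had a mean of 134108 CPM in whole cells and 80531 CPM in EV (edgeR, adjusted p = 0.330), and miR-125b-5p, which represses TNF, had 110495 and 49536 CPM (edgeR, adjusted p = 0.124). The Toll-responsive miR-147b, miR-212-3p and the myeloid miR-223-3p did not reach the filter. miR-223-3p had 0, 3 and 0 counts in whole cells and 31, 85 and 0 in EV. miR-199a-5p, miR-31-5p and miR-124-3p were at 0 in all 6 libraries. The count of calls in the list depended on single libraries and on the tool, as did the count over all filtered miRNAs. It was 0 without whole cell replicate 2, without whole cell replicate 3 or without EV replicate 2, and 1 without EV replicate 1. In these fits, in the same order, 7, 0, 0 and 11 of all 430 filtered miRNAs were called. At an adjusted p below 0.05 with the same fold limit, 6, 6, 9 and 11 of the list passed. Over all filtered miRNAs 65, 68, 109 and 119 did. DESeq2 called 10 of the 24, 8 higher and 2 lower, against 16.7% of all filtered miRNAs.

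**Figure D5:**
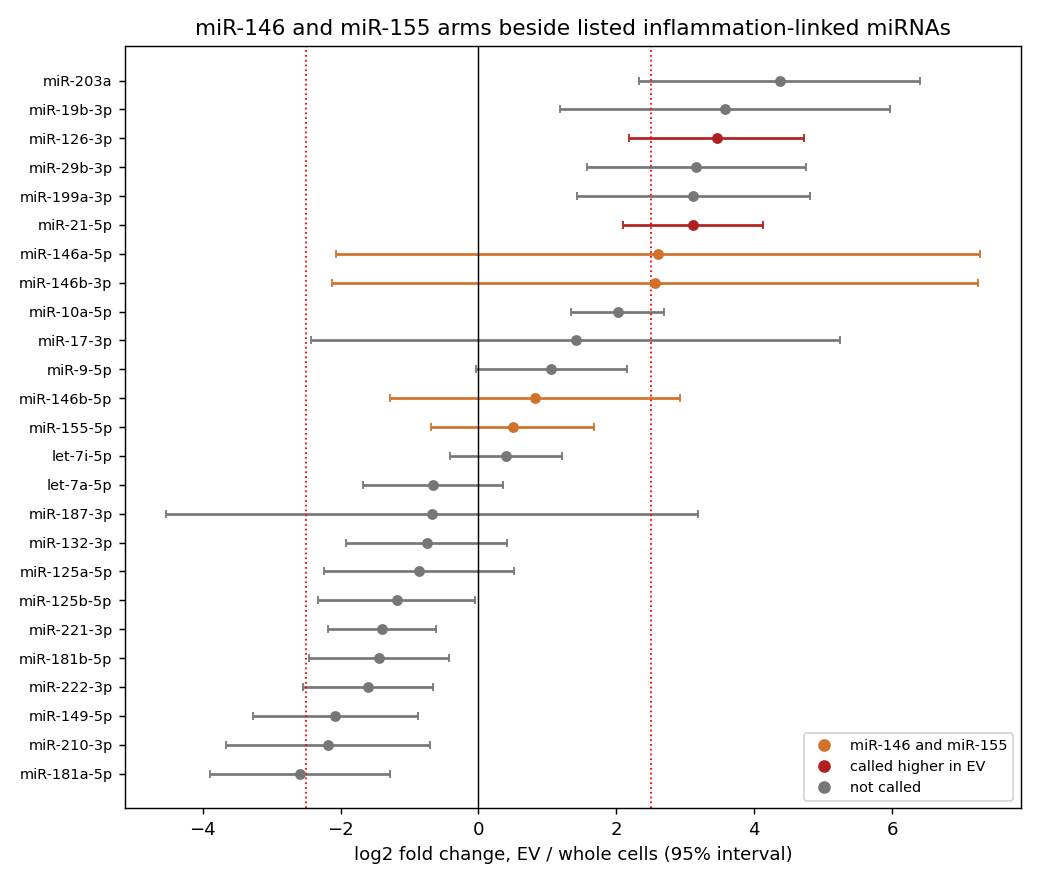
Fitted log2 fold change of EV over whole cells with 95% intervals for the 4 members (orange) and the listed inflammation-linked miRNAs past the filter (red where called, grey where not), without 3 of the list that had a group at or under 3 counts in every library. The intervals of all 4 members cross 0, and those of miR-146a-5p and miR-146b-3p run from -2.06 to 7.27 and from -2.13 to 7.25. Dotted lines mark the fold limit of 2.5.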

How the data were processed

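Small RNA libraries of 3 whole cell and 3 EV samples of MIO-M1 were compared, grouped by the fraction named in their labels. The authors trimmed adapters with Cutadapt, aligned the reads and deposited raw counts of reads per mature miRNA in each library. Per the file headers, counting used featureCounts 1.5.0-p1 with strand setting 1 and miRBase release 20, on alignments from a directory named for Bowtie 1. The submitters' processing notes name Bowtie2, and no genome build is named. The library kit carries molecular identifiers, and whether they were used is not given in the sources used here. Total counts per library are given in the report.

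TMM factors and the quasi-likelihood test of edgeR 4.0.16 (R 4.3.3) were applied to the 430 miRNAs that reached 5 CPM in 3 or more libraries, with Benjamini-Hochberg adjustment over all of them. Standard errors and 95% intervals were derived from the test's F statistic. Both edgeR and DESeq2 1.42.0 were run on simulated data first. Only edgeR at a simulated dispersion of 0.1 had to meet set limits there, whereas the common dispersion of these data was 0.918. For single values and shares, exact permutation tests, two-sided, were run (scipy 1.17.1), where 3 libraries against 3 cannot give a p below 0.1. Nothing says that the samples of a group are more than separate passages of 1 line, so p-values measure the spread between these cultures. Libraries that share a replicate number did not deviate together (correlations of 0.0204, 0.0395 and -0.0172), and no pairing was used. All libraries differed by more than sampling noise, with a chi-square per degree of freedom of at least 21.5.

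The members, the inflammation list, the marker lists (Müller glia, blood cells, endothelium, retinal neurons) and the tests were chosen with earlier results of these data known. Named miRNAs were the members, the other arms of their hairpins, miRNAs that share a member's seed, the 3 filtered miRNAs with the highest Pearson correlation to each member, the called and the 3 most abundant of the inflammation list, and markers at 0 or highest. Others of the list were named after their values were seen. Alternatives covered the tool, scaling, filter, thresholds, pseudocount, thinning to the smallest library (seed 1), a replicate block and each library left out with the filter kept. Figures were drawn with matplotlib 3.10.9.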

Additional observations from a re-analysis of the deposited data

How the results depend on the processing

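Over the alternatives to the fit, 49 of 52 log2 fold changes of the 4 members kept the sign of the value with all libraries, 3 reversed, and 0 passed both limits. The reversals came from leaving out 1 EV library. Over the 6 fits that each lack 1 library, the log2 fold change ran from -0.33 to 3.16 for miR-146a-5p, from -0.85 to 1.20 for miR-146b-5p, from -0.24 to 0.73 for miR-155-5p and from -0.81 to 1.47 for the miR-146 seed family. In the same order the difference in mean log2(CPM + 4) ran from -0.48 to 2.17, from -0.80 to 0.77, from -0.14 to 0.80 and, for the seed sum, from -0.78 to 0.99, and for miR-146b-3p it ran from 0.32 to 2.33. The adjusted p over all alternatives ran from 0.0862 to 0.982 for miR-146a-5p, from 0.320 to 0.947 for miR-146b-5p, from 0.149 to 0.765 for miR-146b-3p and from 0.246 to 0.803 for miR-155-5p. The difference in the 5p share of miR-146b (EV minus whole cells) was -21.7 percentage points, -9.05 with counts pooled over libraries, and -34.4 to -7.55 with a library left out.

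With the replicate block the log2 fold changes were 0.27 for miR-146a-5p, 0.17 for miR-146b-5p, 2.33 for miR-146b-3p and 0.28 for miR-155-5p, the block called 18 of the 430 filtered miRNAs and 2 of the list, and no member's call changed. The number of miRNAs called, 25, was 72 with DESeq2, 38 with upper-quartile factors, 45 without the filter, 93 at an adjusted p below 0.05 with the fold limit, 123 without it, and from 0 to 31 with a library left out. It was 0 without whole cell replicate 3 and 0 without EV replicate 2, where edgeR listed 121 and 169 at an unadjusted p below 0.05, 7 without whole cell replicate 2, 11 without EV replicate 1 and 16 without whole cell replicate 1. Calls in the inflammation list, 3, were 10 with DESeq2, 10 at an adjusted p below 0.05 and from 0 to 4 with a library left out. The cause was not tested, and fits with 5 libraries have fewer residual degrees of freedom. RLE factors moved the median log2 fold change from -0.23 to -0.41, and the values of the members under them were 2.38 for miR-146a-5p, 0.63 for miR-146b-5p, 2.42 for miR-146b-3p and 0.28 for miR-155-5p. Depth limits miR-146b-3p in whole cell replicate 1, where a count of 0 allows 7.58 CPM.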
